A study of Mus musculus with 2 samples.

Results

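Of the 38972 gene rows of the deposited table, 164 carried the symbol of a ribosomal protein and were taken by symbol alone: names beginning Rpl, Rps, Rplp or Rpsa for the cytosolic ribosome, and Mrpl or Mrps for the mitochondrial one. Symbols ending in -ps with or without a number, which mark pseudogenes, were left out. The cytosolic set had 88 genes, 51 of the large subunit (60S) and 37 of the small subunit (40S). The mitochondrial set had 76 genes, 47 of the large subunit (39S) and 29 of the small subunit (28S). RNA had been sequenced from mouse lung cells isolated as fibroblasts, in 1 library from myoFoxf1 KO mice and 1 library from Foxf1fl/fl control mice. The KO mice carried αSMA-Cre-ERT2, a tamoxifen-inducible Cre under the promoter of smooth muscle actin, on floxed Foxf1 alleles, and the controls were littermates with the floxed alleles and no Cre; both were on a C57Bl/6 background. The design text says that both genotypes received bleomycin, which injures the lung and leads to fibrosis, although the labels of the KO library do not repeat this. The protocols give bleomycin at 1 or 2 U/kg into the trachea once a week for 2, 3 or 4 weeks and tamoxifen at 40 mg/kg on days 2, 3 and 4 for transgenic mice, and do not say which schedule each library had. The number, age and sex of the animals behind each library are not given in the sources used here.

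Ribosomes translate messenger RNA. The cytosolic ribosome makes nearly all proteins of the cell, and its proteins come from very abundant messages whose translation is set together through a pyrimidine run at their first bases, the TOP motif, downstream of mTOR and LARP1. The mitochondrial ribosome, a bacterial descendant that has gained many proteins of its own, makes the few proteins encoded by mitochondrial DNA, but its own proteins are encoded in the nucleus, translated in the cytosol and imported. The proteins of one ribosome are needed in near-equal numbers, while several cytosolic ones have a paralog with a narrower distribution.

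The estimated counts summed to 15122824 reads in the KO library and 16145959 in the control library. Foxf1, the targeted gene, had 49 reads in the KO library and 158 in the control library, or 3.61 against 8.77 CPM (the count scaled to a common library size). Its log2 ratio was -1.27 with an interval of -1.77 to -0.81, and -0.84 after removal of the trends on GC content and length described below. Ratios throughout are KO over control on the log2 scale after TMM scaling, and intervals are exact 95% conditional binomial intervals, which cover counting error only. With 1 library per genotype there is no replicate check, no p-value can be given, and genotype cannot be told apart from any other difference between the 2 libraries. Fibroblast markers summed to 731 CPM in the KO library and 1581 in the control library, with 8 of 11 at least 2-fold lower, and myofibroblast markers to 51.4 CPM in the KO and 72.3 in the control library. The 6 myofibroblast markers were split, with 3 ratios below 0, 1 of them at least 2-fold lower, 3 above 0, and a median of -0.42. Macrophage markers summed to 34108 CPM in the KO library and 15662 in the control library, with 6 of 9 at least 2-fold higher, and epithelial markers to 4582 CPM in the KO and 14740 in the control library, with 7 of 8 at least 2-fold lower. In both libraries the fibroblast sum was below the macrophage and the epithelial sum. The epithelial sum came mostly from Scgb1a1 (1887 CPM in the KO and 7161 in the control library) and Sftpc (2071 in the KO and 5413 in the control library). The macrophage sum came mostly from Lyz2 (24231 CPM in the KO and 11221 in the control library). The order of the sums thus depends on the genes listed and does not rank cell types. Neutrophil markers summed to 219 CPM in the KO and 83.7 CPM in the control library, with 3 of 6 at least 2-fold higher and 1, Ltf (-1.44), at least 2-fold lower. Lymphocyte markers summed to 134 CPM in the KO and 343 CPM in the control library. The B cell genes Cd79a (37.5 CPM in the KO and 160.5 in the control library) and Cd79b (37.5 CPM in the KO and 120.1 in the control library) carried most of that difference, while Cd8a had a ratio of 2.18 and was at least 2-fold higher, Cd4 and Cd3d were at 0.40 and 0.10, and the median of the list was -0.10. Endothelial markers summed to 85.6 CPM in the KO and 189 CPM in the control library, and mesothelial markers to 47.3 CPM in the KO and 202 CPM in the control library. Erythroid markers summed to 738 CPM in the KO and 1989 CPM in the control library, and no marker of any list was at 0. Since every cell type makes ribosomes, these shifts go along with every result below, and their part in the results was not tested. In bulk RNA, fewer cells of a type and less RNA per cell cannot be told apart.

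Of the 164 genes, 157 reached 1 CPM in at least 1 library and 20 reads over both libraries, and are referred to as measured: 82 cytosolic (49 of the 60S and 33 of the 40S subunit) and 75 mitochondrial (46 of the 39S and 29 of the 28S subunit). The other 7 had few or no reads. Mrpl53 and Rpl10l had 0 reads in both libraries, Rps12l2 and Rps3a2 had 0 in the KO library and 2 in the control library, and Rps3a3 had 1 in the KO and 2 in the control library. Rps12l1 had 4 reads in the KO library and 11 in the control library, and Rpl39l had 12 in the KO and 9 in the control library. For 160 of the 164 genes the identifier had the same name in the GENCODE M21 annotation of GRCm38. The row named Rpl24 carried the identifier of Zbtb11, a zinc finger gene, and the identifier of Rpl24 itself stood on a row spelled RPL24, which the naming rule did not take. RPL24 had 4456 reads in the KO library and 5342 in the control library, a log2 ratio of 0.15 with an interval of 0.09 to 0.21, and exchanging the rows left the cytosolic median at -0.30. The identifier of Rps4y2 is named Rps4l in the annotation, that of Rps12l2 is named Rps12-ps24, a pseudogene, and that of Mrpl33 was not found there.

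Cytosolic ribosomal protein messages were far more abundant than mitochondrial ones in both libraries. In FPKM, which is per length, the median of the cytosolic genes was 217 in the KO library and 332 in the control library, and that of the mitochondrial genes was 7.60 in the KO and 12.4 in the control library. Small-subunit genes of the cytosol had a median of 310 FPKM in the KO library and 514 in the control library, above the large-subunit genes at 204 in the KO and 298 in the control library. In CPM, which does not divide by length, the medians of the 40S and 60S genes were close. They were 362 and 354 CPM in the KO library, and 464 and 454 CPM in the control library. In FPKM the mitochondrial subunits were closer to each other than the cytosolic ones. The medians for 39S genes were 8.33 FPKM in the KO and 11.4 FPKM in the control library, and for 28S genes 7.44 FPKM in the KO and 13.1 FPKM in the control library. The highest gene was Rps27, a zinc finger protein of the 40S subunit, at 1552 FPKM in the KO library and 2302 in the control library. It was followed in the control library by Rplp1, an acidic protein of the stalk that recruits translation factors, at 809 FPKM in the KO library and 1954 in the control library. Among mitochondrial genes Mrpl52 of the 39S subunit was highest at 33.9 FPKM in the KO library and 58.2 in the control library, and Mrps6 was the highest of the 28S subunit at 20.1 in the KO and 33.3 in the control library. The order of the genes was close in both libraries: across genes, Spearman's rho of FPKM in the KO with FPKM in the control library was 0.963 over 82 cytosolic genes and 0.924 over 75 mitochondrial genes. Both FPKM values of a gene were divided by the same length, which can by itself bring the 2 orders closer. These lengths differed widely between genes, with 255 bases for Rps27 and 6262 for Rps15a. The ranking of genes in FPKM depends on them. Genes are not independent replicates, and the scale of FPKM divides by the whole library, so a lower FPKM of all genes of a set is also a lower share of the library.

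**Figure D1:**
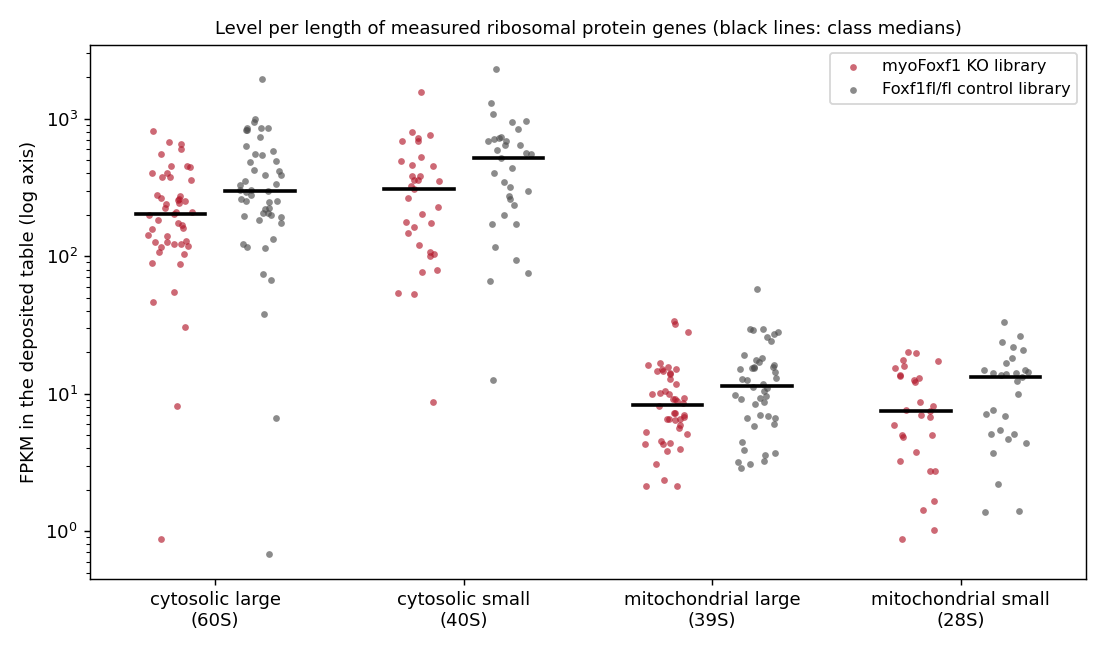
Level of each measured ribosomal protein gene in FPKM (log axis) by subunit, with the myoFoxf1 KO library in red and the Foxf1fl/fl control library in grey, and black lines at the class medians. The cytosolic medians lie between 204 and 514 FPKM and the mitochondrial medians between 7.44 and 13.1 FPKM.

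The KO library spent a smaller share of its reads on both ribosomes. Cytosolic ribosomal protein genes took 439551 reads, 2.907% of the KO library (Clopper-Pearson 95% interval 2.898 to 2.915%), against 734912 reads, 4.552% of the control library (4.542 to 4.562%). Mitochondrial ribosomal protein genes took 17922 reads, 0.119% of the KO library (0.117 to 0.120%), against 25948 reads, 0.161% of the control library (0.159 to 0.163%). After TMM scaling the summed levels had log2 ratios of -0.33 (interval -0.34 to -0.33) for the cytosolic set and -0.12 (-0.15 to -0.10) for the mitochondrial set. Of the reads of both ribosomes together, the mitochondrial genes made up 3.918% in the KO library (3.862 to 3.974%) and 3.410% in the control library (3.370 to 3.451%). The balance of the subunits moved little: 40S genes made up 41.0% of cytosolic ribosomal protein reads in the KO library (40.9 to 41.1%) and 41.2% in the control library (41.1 to 41.3%). Among mitochondrial reads, 28S genes made up 35.8% in the KO library (35.1 to 36.5%) and 36.8% in the control library (36.2 to 37.4%), intervals that overlap.

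Gene by gene, most ribosomal protein messages were slightly lower in the KO library and few changed by 2-fold. The median log2 ratio was -0.30 over the 82 cytosolic genes, with a range of -1.10 to 1.04, and -0.21 over the 75 mitochondrial genes, with a range of -1.17 to 0.98, against 0.01 over all 14455 measured genes. Genes of at least 10 CPM had a median of 0.14, which is above the median of all measured genes. Of the cytosolic genes 66 had a ratio below 0 and 16 above, and of the mitochondrial genes 46 below and 29 above, while 49.6% of all measured genes were below 0. The cytosolic median was 0.10 below the mitochondrial one, and the subunits ran from -0.34 for the 40S through -0.27 for the 60S and -0.23 for the 28S to -0.16 for the 39S genes. Mitochondrial proteins numbered like their bacterial relatives had a median of -0.25 over 44 genes, and those with higher numbers, mostly proteins gained in the mitochondrion, of -0.12 over 31 genes. With the trends on GC content and length removed, as described below, these medians were -0.04 and -0.07, in the other order.

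Genes that differed by 2-fold or more and whose interval excluded equality were called, and 23.6% of all measured genes met this rule, 9.37% higher and 14.2% lower in the KO library. By this rule 1 cytosolic gene was called higher and 1 lower, 2.44% of the cytosolic set, and 2 mitochondrial genes were called lower and 0 higher, 2.67% of that set. Under other settings the counts moved with the background. Scaled by total reads, 8 cytosolic and 7 mitochondrial genes were called lower and 0 higher, where 22.1% of all genes were lower and 4.05% higher. On log2 of FPKM plus 1, 7 cytosolic and 4 mitochondrial genes were lower, where 12% of all genes were lower and 2.24% higher, and on log2 of FPKM plus 0.1, 8 and 7 were lower, where 20% were lower and 3.44% higher. With a threshold of 1.5-fold in place of 2-fold, 17 cytosolic genes were lower and 2 higher and 8 mitochondrial genes were lower and 1 higher, where 23.5% of all genes were lower and 22.1% higher. Under the 2-fold rule after TMM scaling both shares are far under the share of all genes, and the ratios within each set were narrow: the interquartile range was 0.47 for cytosolic and 0.58 for mitochondrial genes, against 1.13 for all genes. Ratios within 0.5 of 0 were found for 52 of 82 cytosolic genes (63.4%) and 64 of 75 mitochondrial genes (85.3%), against 44.7% of all genes. All measured genes include many with few reads. Among genes of at least 10 CPM, 18.8% were called, the interquartile range was 1.01 and 48.2% lay within 0.5 of 0. By the interval alone, 63 cytosolic genes lay below equality and 9 above, and 35 mitochondrial genes lay below and 15 above, where 35.2% of all genes lay below and 37.7% above. These last counts depend on depth: the median cytosolic gene had 4825.5 reads in the KO library and 8271.5 in the control library and an interval 0.10 wide, and the median mitochondrial gene had 245 reads in the KO and 316 in the control library and an interval 0.50 wide.

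**Figure D2:**
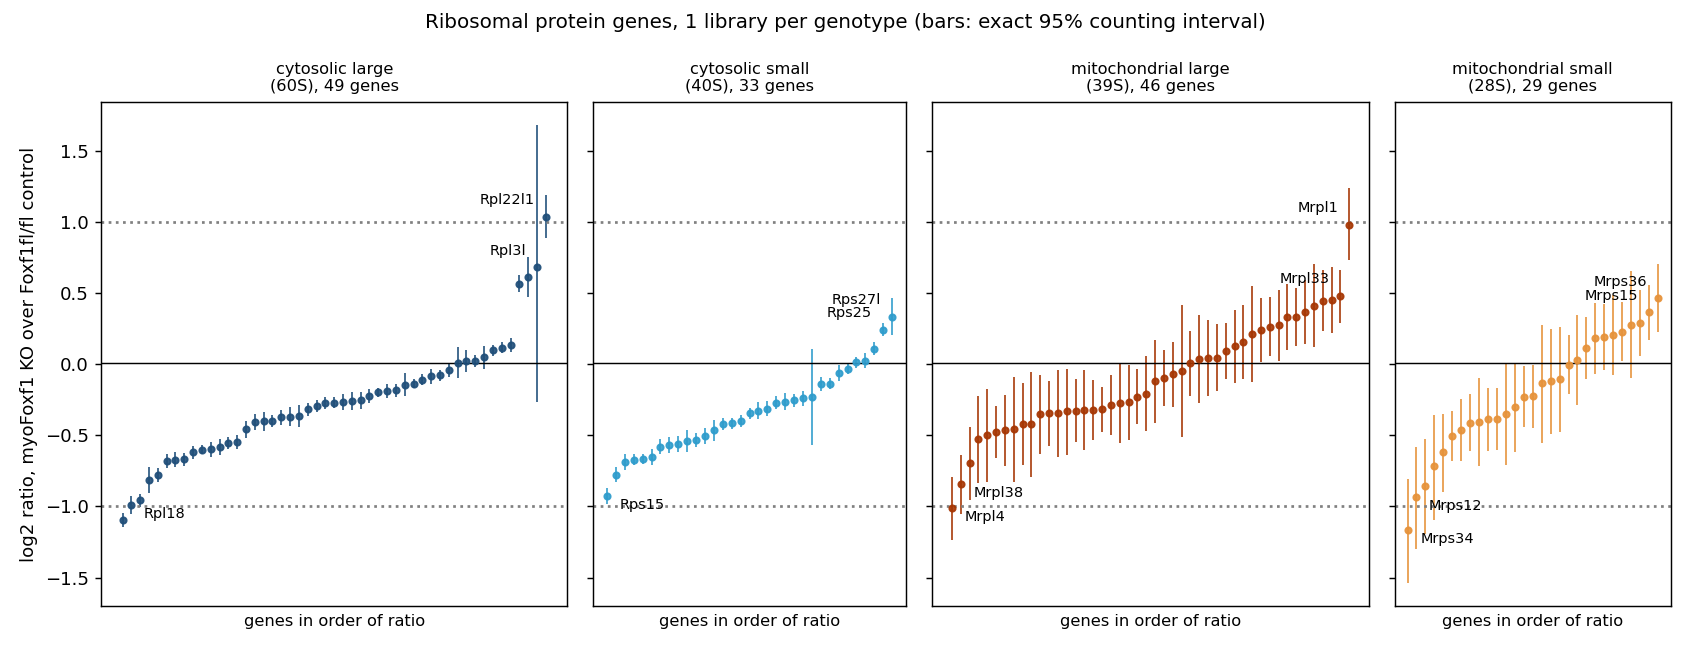
Log2 ratio of KO over control for each measured gene, in order of size within each subunit; bars are exact 95% counting intervals, the solid line is the median of all measured genes and dotted lines mark 2-fold. Most points lie between -1 and 0.5, with Rpl22l1 at 1.04 and Mrpl1 at 0.98 standing above their classes.

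Among the large-subunit proteins of the cytosolic ribosome, Rpl18 had 208 CPM in the KO library and 412 in the control library, a ratio of -0.99, just short of 2-fold. Rplp1 had 447 CPM in the KO library and 867 in the control library (-0.96), its partner Rplp2 had 296 CPM in the KO and 472 in the control library (-0.67), and Rplp0, which anchors both to the ribosome and was the most abundant 60S gene on the mean CPM of both libraries, had 843 CPM in the KO and 1278 in the control library (-0.60). After the GC and length correction these 3 stalk genes were at -0.11, -0.12 and -0.21, near the corrected median of all cytosolic genes, -0.13, while Rpl18 was at -0.72. At the other end Rpl39, a very short protein lining the exit tunnel, had 333 CPM in the KO library and 225 in the control library, a ratio of 0.57 with an interval of 0.50 to 0.63, and 0.68 after the correction. The row named Rpl24 had a ratio of 0.61 and, by its identifier, holds Zbtb11. Rpl5 and Rpl11, which together bind Mdm2 when ribosome assembly fails and so stabilise p53, differed from each other: Rpl5 had 806 CPM in the KO library and 869 in the control library (-0.11), and Rpl11 had 313 CPM in the KO and 474 in the control library (-0.60), and their intervals, -0.14 to -0.07 and -0.65 to -0.54, do not overlap. The order turned with the correction, to -0.52 for Rpl5 and -0.21 for Rpl11.

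No small-subunit gene of the cytosolic ribosome was called. Among the lowest was Rps15, a protein of the head of the subunit, with 252 CPM in the KO library and 479 in the control library (-0.93). Rps14, whose loss underlies the anaemia of the human 5q deletion, had 269 CPM in the KO and 433 in the control library (-0.69). Rpsa, also known as the laminin receptor and the most abundant 40S gene on the mean CPM of both libraries, had 673 CPM in the KO library and 1066 in the control library (-0.66). With the GC and length correction Rps15 moved above 0, to 0.34, and Rps14 to -0.06, while Rpsa was at -0.51. With GC content and length taken from the principal transcript, as described below, Rps15 was at -0.10, so its corrected sign depended on the transcript used. The 3 highest were Rps27l at 0.33, Rps25 at 0.24 and Rps27a at 0.11. Rps25, which several viral messages need for initiation without a cap, had 526 CPM in the KO library and 445 in the control library, and Rps27a, made as a fusion with ubiquitin, had 501 CPM in the KO and 464 in the control library. The correction left Rps25 at 0.46 and Rps27l at 0.07 and put Rps27a below 0, at -0.19. On the principal transcript Rps27a stayed above 0, at 0.13.

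Mrpl4, a protein at the mitochondrial exit tunnel, and Mrps34, a small-subunit protein with no bacterial counterpart, were the mitochondrial genes called. Mrpl4 had 229 reads in the KO library and 614 in the control library, or 16.9 against 34.1 CPM, a log2 ratio of -1.01 with an interval of -1.24 to -0.79 (ENSMUSG00000003299, chr9:21002737-21008835, plus strand). Mrps34 had 85 reads in the KO and 254 in the control library, or 6.27 CPM in the KO library and 14.1 in the control library, a ratio of -1.17 with an interval of -1.54 to -0.81 (ENSMUSG00000038880, chr17:24895116-24897502, plus strand). Mrps34 overlaps Mapk8ip3, which had 890 reads in the KO library and 1395 in the control library, and since the Nextera XT kit leaves strand unmarked, reads from the stretch they share could come from either gene. Of the measured genes, 11 mitochondrial ones and the row named Rpl24 among the cytosolic ones overlapped a gene with more control reads than their own. Mrpl33 and Mrps7, named below, are among them. Mrpl33 overlaps Bre, with 419 reads in the KO and 519 in the control library. Mrps7 overlaps Mif4gd, with 642 reads in the KO and 1622 in the control library.

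The other mitochondrial extremes were uncalled. In the large subunit Mrpl38 had 20.7 CPM in the KO library and 37.2 in the control library (-0.84) and Mrpl54 had 13.6 CPM in the KO and 21.99 in the control library (-0.69), and with the GC and length correction both moved above 0, to 0.09 and 0.40. Mrpl1, which forms the stalk beside the site where spent transfer RNA leaves, had 329 reads in the KO library and 221 in the control library, or 24.3 against 12.3 CPM, a ratio of 0.98 with an interval of 0.73 to 1.24. It stood alone at the top, since the next genes, Mrpl33 with 36.1 CPM in the KO library and 25.9 in the control library (0.48) and Mrpl42 with 23.7 CPM in the KO and 17.3 in the control library (0.45), were at less than 1.5-fold. With the correction Mrpl1 was at 0.40 and Mrpl42 at -0.02, and on the principal transcript they were at 0.30 and 0.31. Mrpl33, whose identifier was not found in the annotation, has no corrected ratio. The stalk base protein Mrpl10 had a ratio of -0.34 and Mrpl12, the stalk protein that also binds the mitochondrial RNA polymerase, of -0.48, and with the correction they were at -0.01 and 0.15. In the small subunit Mrps12, a protein of the decoding centre, had 92 reads in the KO library and 234 in the control library (-0.93), and Mrps26 had 109 in the KO and 262 in the control library (-0.85), with corrected ratios of -0.26 and -0.97. Mrps36, Mrps15 and Mrps2 were highest, at 0.46, 0.36 and 0.29, and at 0.45, 0.97 and 0.34 with the correction; the product of Mrps36 is now known as a component of the oxoglutarate dehydrogenase complex. The most abundant genes on the mean CPM of both libraries, Mrpl24 with 39.4 CPM in the KO library and 49.03 in the control library (-0.32) and Mrps7 with 31.1 CPM in the KO and 44.1 in the control library (-0.50), lay inside their classes. The 3 Mrps18 genes, relatives of a single bacterial protein, had ratios of -0.23 for Mrps18a, -0.38 for Mrps18b and 0.21 for Mrps18c, and corrected ratios of 0.28, -0.02 and -0.04. On the principal transcript their corrected ratios were 0.34, -0.09 and 0.12.

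Rpl22l1 was the cytosolic gene called higher. It had 909 reads in the KO library and 589 in the control library, or 67.1 against 32.7 CPM, a log2 ratio of 1.04 with an interval of 0.88 to 1.19 (ENSMUSG00000039221, chr3:28805436-28807352, plus strand). Its paralog Rpl22, which binds RNA and in mice is known to hold Rpl22l1 down, had 179 CPM in the KO library and 177 in the control library, a ratio of 0.02. Of the reads of the pair, Rpl22l1 thus took 27.2% in the KO library (25.7 to 28.8%) and 15.6% in the control library (14.5 to 16.8%). A share within a pair does not depend on how the libraries are scaled, but it does depend on transcript length. In FPKM, Rpl22l1 took 69.0% of the pair in the KO library and 52.4% in the control library. With the GC and length correction the ratios were 0.68 for Rpl22l1 and 0.06 for Rpl22. The call depends on the scaling: scaled by total reads the ratio of Rpl22l1 was 0.72, under the threshold.

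The other paralogs changed less or were scarce. Rps27l, a target of p53, took 13.6% of the reads of Rps27l and Rps27 in the KO library (12.8 to 14.4%). In the control library it took 9.46% (8.90 to 10.03%). Its own ratio was 0.33 and that of Rps27 -0.25. The GC content of the longest transcript was 43.1% for Rps27l and 55.4% for Rps27. With the GC and length correction the order turned, to 0.07 for Rps27l and 0.38 for Rps27. On the principal transcript they were at 0.12 and 0.04. Rpl7l1, which takes part in ribosome assembly, took 10.4% of the reads with Rpl7 in the KO library (9.84 to 10.96%) and 10.961% in the control library (10.5 to 11.5%), and the intervals overlap. Rpl3l, the muscle paralog of Rpl3, had 22 reads in the KO library and 18 in the control library, 0.281% of the pair (0.176 to 0.425%) against 0.141% (0.0837 to 0.223%). Rpl39l, known from testis, took 0.265% of the reads with Rpl39 in the KO library and 0.222% in the control library. Rpl10l, which replaces the X-linked Rpl10 in male germ cells, had 0 reads beside 12526 of Rpl10 in the KO library and 18284 in the control library, which allows a share of up to 0.0240% in the KO library and 0.0164% in the control library.

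**Figure D3:**
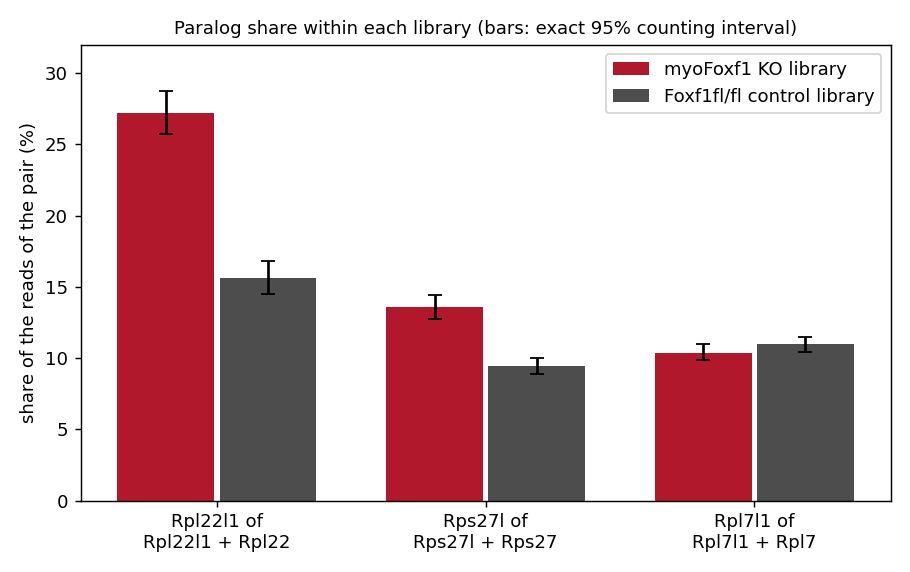
Share of a paralog in the reads of its pair, in percent, in the myoFoxf1 KO library (red) and the Foxf1fl/fl control library (grey), with exact 95% counting intervals. In the KO library the shares of Rpl22l1, Rps27l and Rpl7l1 are 27.2%, 13.6% and 10.4%, and in the control library 15.6%, 9.46% and 10.961%. The shares are of reads, not divided by length and not corrected for GC content.

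The letters around the starts of transcription were compared next, since TOP starts mark cytosolic ribosomal protein genes and ETS, YY1 and related motifs are known in nuclear genes for mitochondrial proteins. RefSeq promoter windows of GRCm38.p6, from 250 bases before to 50 bases after the start, were found for 63 of the 88 cytosolic and 67 of the 76 mitochondrial genes, and for 27025 genes in all. A start at C followed by 4 pyrimidines, the form of the TOP motif searched on the coding strand, was found in 13 cytosolic genes (20.6%), in 0 of 67 mitochondrial genes and in 3.01% of all genes. Only the annotated first base was searched. A run beginning beside it, as just after the start in the Rpl22l1 window below, was not counted, so these shares are not shares of TOP messages. The pyrimidine run CTTTCC, searched on both strands, was in 33 cytosolic windows (52.4%), 21 mitochondrial windows (31.3%) and 29.3% of all windows. CCGGAAGT, a binding motif of ETS factors such as the GABP complex, was about equally common in both sets, in 12 cytosolic (19.05%) and 12 mitochondrial windows (17.9%), against 4.31% of all. AAGATGGC, a motif of YY1, was in 6 cytosolic (9.52%) and 12 mitochondrial windows (17.9%), against 3.19%. The other motifs searched were a palindromic motif of NRF1, in 2 cytosolic (3.17%) and 3 mitochondrial windows (4.48%), against 1.07%, CCAAT, in 19 cytosolic (30.2%) and 27 mitochondrial windows (40.3%), against 41.1%, and TATAAA, in 7 cytosolic (11.1%) and 5 mitochondrial windows (7.46%), against 15.7%, all on both strands. The windows of members were richer in GC than those of all genes, with medians of 57% for cytosolic, 58% for mitochondrial and 52.75% for all genes. None of these motifs contains another, though a start of the TOP form can coincide with CTTTCC, and a match describes letters, not a bound site.

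Median ratios were then set side by side for the measured genes with and without a motif, with no test. Cytosolic genes whose annotated start had the TOP form had a median ratio of -0.34 (13 genes), against -0.31 without it there (48 genes). The 48 genes may hold TOP messages whose run begins beside the annotated base. Cytosolic genes with CCGGAAGT had a median of -0.35 (12 genes), against -0.31 without it (49 genes). With AAGATGGC the cytosolic median was -0.04 over only 6 genes, against -0.36 without it (55 genes), and with CTTTCC it was -0.32 (31 genes), against -0.33 (30 genes). Mitochondrial genes with CCGGAAGT had a median of -0.11 (12 genes) and those without it of -0.17 (54 genes). With AAGATGGC the mitochondrial median was -0.17 (12 genes), against -0.11 without it (54 genes), with CTTTCC -0.23 (21 genes), against -0.11 (45 genes), and with CCAAT 0.07 (26 genes), against -0.23 (40 genes). With CCAAT the cytosolic median was -0.31 (19 genes), against -0.36 (42 genes), and TATAAA gave -0.14 (7 genes) against -0.33 (54 genes) in the cytosolic set and -0.38 (5 genes) against -0.11 (61 genes) in the mitochondrial set. The medians with the NRF1 motif, -0.43 over 2 cytosolic and -0.07 over 3 mitochondrial genes, rest on too few genes to compare. To show what these starts look like, the following lines give 100 bases before and 20 bases from the start of transcription on the strand of the gene. They are in lower case with CCGGAAGT, AAGATGGC and CTTTCC (or their reverse complements) in capitals. Shown are paralog pairs, genes at the ends of their classes, and Rpl38, whose ratio of 0.05 was not at an end of its class. The entries for Mrpl4, Mrps34, Rplp1, Mrpl38 and Mrpl54 were not in the table used.
Rpl22l1 (chr3:28805408-28805527, plus strand): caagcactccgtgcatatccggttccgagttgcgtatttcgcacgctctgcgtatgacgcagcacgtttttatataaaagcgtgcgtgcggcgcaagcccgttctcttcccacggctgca
Rpl22 (chr4:152325626-152325745, plus strand): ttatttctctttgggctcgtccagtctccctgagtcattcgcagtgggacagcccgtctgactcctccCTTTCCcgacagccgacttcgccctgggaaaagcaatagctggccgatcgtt
Rps27l (chr9:66945986-66946105, plus strand): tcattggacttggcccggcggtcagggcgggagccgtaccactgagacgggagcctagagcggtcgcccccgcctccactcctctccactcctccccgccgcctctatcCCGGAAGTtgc
Rps27 (chr3:90213629-90213748, minus strand): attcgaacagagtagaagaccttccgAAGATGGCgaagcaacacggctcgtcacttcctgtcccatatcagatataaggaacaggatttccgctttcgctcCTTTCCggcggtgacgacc
Rpl38 (chr11:114668480-114668599, plus strand): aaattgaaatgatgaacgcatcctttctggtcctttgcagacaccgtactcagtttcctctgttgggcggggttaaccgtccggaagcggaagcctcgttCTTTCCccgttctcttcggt
Rps25 (chr9:44407614-44407733, plus strand): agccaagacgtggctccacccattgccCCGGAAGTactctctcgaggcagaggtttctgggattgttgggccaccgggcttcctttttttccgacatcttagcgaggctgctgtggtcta
Mrpl1 (chr5:96210015-96210134, plus strand): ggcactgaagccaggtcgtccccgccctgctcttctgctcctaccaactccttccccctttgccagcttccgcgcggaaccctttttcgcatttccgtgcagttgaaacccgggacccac
Mrps12 (chr7:28741802-28741921, minus strand): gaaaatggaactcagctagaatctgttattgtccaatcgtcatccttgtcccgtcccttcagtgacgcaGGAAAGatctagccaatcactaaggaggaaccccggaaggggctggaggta
The members of each pair differed. Rpl22l1, higher in the KO library, had none of the 3 motifs marked in its 120 bases, and Rpl22 had CTTTCC ahead of its start. Rps27l had CCGGAAGT just after its start, and Rps27 had AAGATGGC ahead of its start and CTTTCC just after the first base. Rpl38 had CTTTCC from its first base on. Rpl22 and Rps27l each have another start in the table, which is not shown.

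The ratio followed base composition, among members as among all genes. GC content of the longest annotated transcript was known for 82 of 82 cytosolic and 74 of 75 mitochondrial genes. Spearman's rho of the ratio with GC was -0.51 over the cytosolic, -0.58 over the mitochondrial and -0.54 over 14289 measured genes; all points come from the same pair of libraries. Cytosolic genes under 45% GC had a median ratio of 0.02 (12 genes), those of 45 to 50% one of -0.23 (24 genes), those of 50 to 55% one of -0.57 (27 genes) and those of 55% or more one of -0.37 (19 genes). Over the same 4 steps, mitochondrial genes had medians of 0.18, -0.22, -0.30 and -0.50, and all measured genes of 0.58, 0.22, -0.18 and -0.60. Below 55% GC, both sets therefore lay under all genes of like composition, and at 55% or more they lay above them. The members were also short: the longest transcript had a median length of 1107.5 bases for cytosolic, 1806.5 for mitochondrial and 3313 for all measured genes.

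With the trends of the ratio on GC content and length removed across all genes, the members moved towards the rest, and none of the 4 called genes remained called. The medians became -0.13 for cytosolic and -0.06 for mitochondrial genes, against 0.04 for all genes, and the difference between the 2 sets became -0.06. Rpl22l1 had a corrected ratio of 0.68, Mrpl4 of -0.44 and Mrps34 of -0.23. With GC content and length of the principal transcript they were at 0.55, -0.07 and -0.18. In their place 2 cytosolic genes, Rpl38 (1.06) and Rpl3l (1.31), were called higher, and 1 mitochondrial gene, Mrpl17 (-1.01), was called lower, where 5.36% of all genes were called higher and 10.9% lower. Before the correction Rpl38 stood at 0.05, with 168 CPM in the KO library and 162 in the control library. Mrpl17 stood at -0.33, with 19.8 CPM in the KO and 24.9 in the control library, and Rpl3l at 0.68 with an interval of -0.27 to 1.68. The correction turned the relation with GC round among the members, to a rho of 0.58 for cytosolic and 0.55 for mitochondrial genes, while over all genes it left 0.04. The rho with length went from 0.18 to -0.53 for cytosolic and from 0.19 to -0.64 for mitochondrial genes, and from 0.27 to 0.01 over all genes. The same corrected ratio had rhos of 0.25 and 0.45 with the GC content of the principal transcript. With the correction itself made on GC content and length of the principal transcript, the medians were -0.10 and -0.04. Then 2 cytosolic genes were called higher and 3 mitochondrial genes, Mrps25, Mrps26 and Mrpl17, lower, where 4.68% of all genes were higher and 11.1% lower. How far composition sets the ratio of any single member was not tested.

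**Figure D4:**
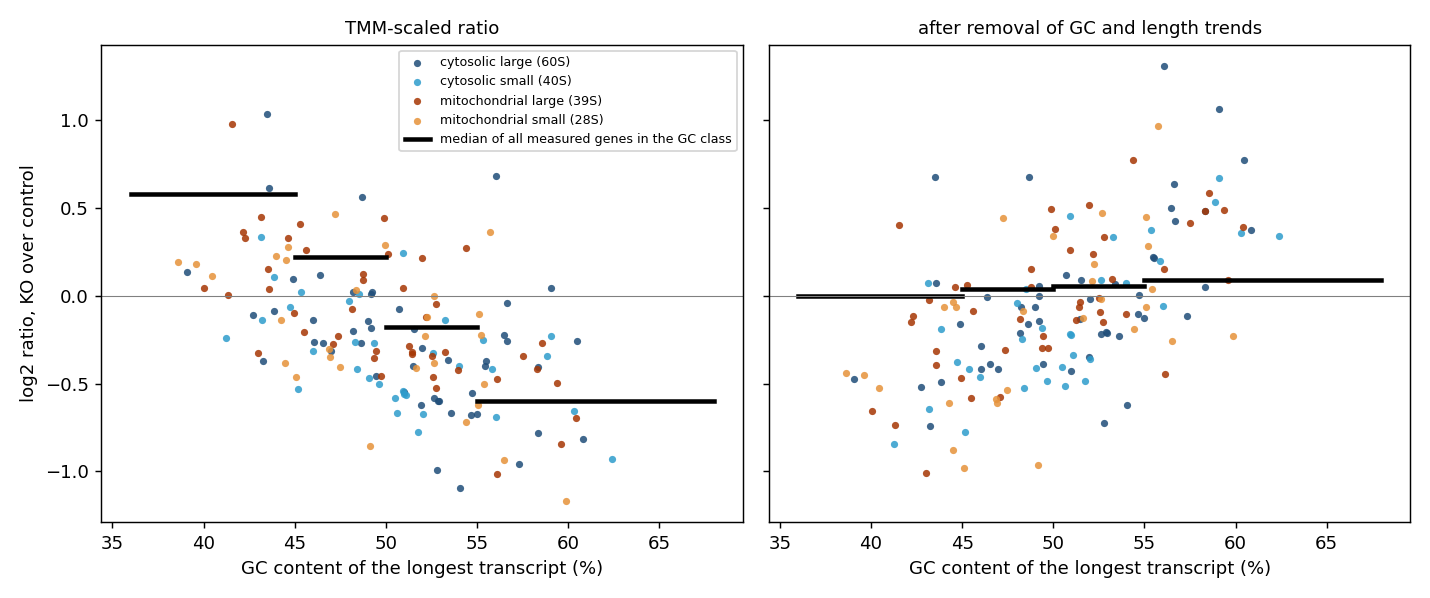
Log2 ratio of KO over control against the GC content of the longest transcript, for the ribosomal protein genes by subunit (points) with the median of all measured genes in each of 4 GC classes (black lines); left after TMM scaling, right after removal of the trends on GC content and length. On the left the members fall with GC as all genes do, and on the right they rise with it while the medians of all genes stay near 0.

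Proteins of the 2 ribosomes that carry other names were also mostly lower in the KO library. Of 4 cytosolic ones the median ratio was -0.67, and 1 was called lower and 0 after the correction. Fau, a fusion of a ubiquitin-like protein with a small-subunit protein, had a ratio of -0.87 and Gnb2l1, the scaffold RACK1, of -0.48; corrected, Fau was at 0.16, Gnb2l1 at -0.63 and the median at -0.20. Of 6 mitochondrial ones the median was -0.20 and 0 were called; Aurkaip1 was at -0.37 and Dap3 at -0.03.

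Before the correction the medians of the lists of genes that build and serve the ribosomes lay between -0.08 and 0.18, above those of the ribosomal protein sets. Of 52 ribosome assembly factors 0 were called, with a median of 0.18; the nucleolar proteins Ncl and Npm1 were both at 0.58, Ncl with 932 CPM in the KO library and 624 in the control library and Npm1, which is in the TOP list as well, with 681 CPM in the KO and 456 in the control library. Corrected, Ncl was at -0.12 and Npm1 at 0.17. Of 16 genes of RNA polymerase I and ribosomal RNA transcription 0 were called, with a median of -0.02; Polr1d was at -0.05 and Ubtf, a factor that binds ribosomal DNA, at -0.38. A list of elongation and initiation factors and other messages of the TOP kind, here the TOP list, had 0 of 26 called and a median of 0.03. Whether each of its genes has a TOP start was not checked. Eef1a1, which delivers transfer RNA to the cytosolic ribosome, had 7227 CPM in the KO library and 7029 in the control library (0.04), and Tpt1 had 2639 CPM in the KO and 2692 in the control library (-0.03), while Eef2, which moves the ribosome along, had 1585 CPM in the KO and 1982 in the control library (-0.32, corrected 0.27). After the correction the 3 medians were 0.02 for assembly factors, 0.03 for the polymerase I list and -0.02 for the TOP list.

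On the mitochondrial side, 29 translation and assembly factors had a median of 0.08, with 1 called higher and 0 lower. That one was Malsu1, an assembly factor that binds the large subunit, with 660 reads in the KO library and 266 in the control library, a ratio of 1.72 with an interval of 1.51 to 1.93 and a corrected ratio of 1.35 that was still called. Of 17 mitochondrial tRNA synthetases 2 were called lower, Vars2 (-1.09) and Sars2 (-1.02), and neither after the correction, when Mars2 (-1.47) was; the median was -0.08, and -0.16 after the correction. Of 13 genes of mitochondrial transcription and its regulators 0 were called, with a median of -0.02. After the correction that median was -0.25, and Ppargc1a, the coactivator PGC-1α, was called lower (-1.24, uncorrected -0.49). Both corrected medians were below that of the mitochondrial ribosomal proteins, -0.06, while that of the translation and assembly factors was 0.15. Gabpa, the DNA-binding subunit of GABP, had 98.5 CPM in the KO library and 53.6 in the control library (0.88, corrected 0.21), and Yy1 had 154 CPM in the KO and 89.1 in the control library (0.79, corrected 0.68).

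Among 23 regulators of ribosomal protein synthesis the median was 0.06, and 0.23 after the correction, and 2 were called higher and 2 lower. Myc, a transcription factor known to drive ribosome production, had 740 reads in the KO library and 2687 in the control library, or 54.6 against 149 CPM, a ratio of -1.45 with an interval of -1.57 to -1.33, and a corrected ratio of -1.09 that was still called. Mycn had 7 reads in the KO and 29 in the control library (-1.58, interval -3.08 to -0.42), and was not called after the correction. Larp4, which binds messages at the poly(A) tail, was called higher with 328 CPM in the KO library and 127 in the control library (1.37), as was Rps6ka3, a kinase that phosphorylates ribosomal protein S6 among others, with 280 CPM in the KO and 122 in the control library (1.19), and neither was called after the correction.

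**Figure D5:**
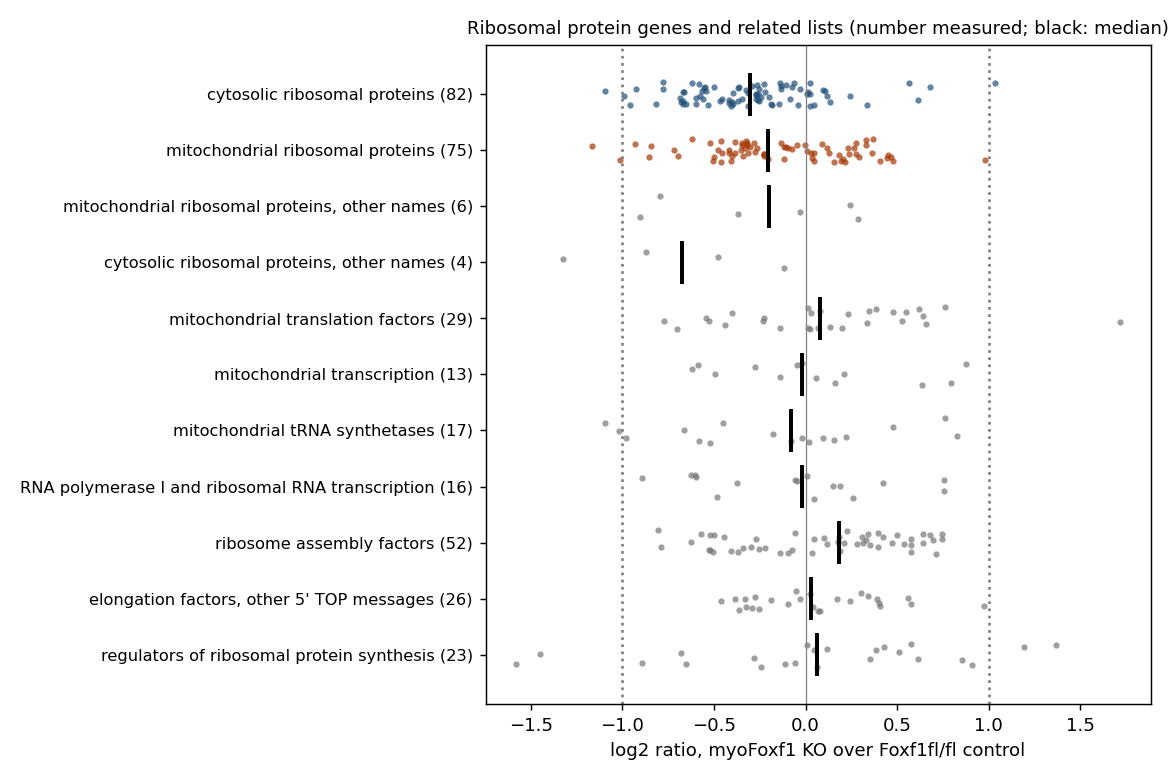
Log2 ratio of KO over control for each measured gene of the cytosolic set, the mitochondrial set and 9 related lists, with the number measured in brackets, a black bar at each median and dotted lines at 2-fold. The medians of the ribosomal protein sets are -0.30 and -0.21, and those of the other lists run from -0.67 for cytosolic ribosomal proteins with other names to 0.18 for assembly factors.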

How the data were processed

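The Nextera XT kit was used for both libraries, per the labels. The authors deposited estimated counts and FPKM of each gene in 1 table. The submitters' processing notes name TopHat, Cufflinks, GRCm38 and mm10, roles and versions not given. The deposited FPKM was the estimated count over a length common to both libraries. How reads shared by near-identical genes were counted is not given in the sources used here, so genes with many pseudogene copies are less certain.

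Estimated counts were rounded and scaled by TMM in edgeR 4.0.16 (R 4.3.3) to 13556813 reads (KO) and 18011054 (control); ratios used a prior count of 0.5. Intervals were computed with scipy 1.17.1 under Python 3.11.15. No molecular identifiers were read, so they cover counting error alone, as does the limit for 0 reads, 3 reads of the total. Trends on GC content and length (GENCODE M21) were removed by lowess (span 0.3, statsmodels 0.14.6). The calculations were tested on simulated data. Alternatives were total reads, DESeq2 1.42.0 size factors, FPKM plus 1 or 0.1, other filters, a prior count of 2 and a 1.5-fold rule.

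Members and lists were chosen with earlier results of these data known. Named were called members, the most abundant by mean CPM of both libraries and the 3 highest and 3 lowest of each subunit, and paralogs with their base gene; of related lists, called genes or else the 2 most abundant. Rpl5, Rpl11, Rpl38, Rplp2, Mrpl10, Mrpl12, Mrpl17, Mrpl52, Mrps6, the Mrps18 genes, Fau, Gnb2l1, Eef2, Mars2, Ppargc1a, Cd79a, Cd79b, Cd8a, Cd4, Cd3d, Scgb1a1, Sftpc, Lyz2, Ltf, Lars2 and Iars2 were named after their values were seen. Some genes taken by the rule are not reported here.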

Additional observations from a re-analysis of the deposited data

How the results depend on the processing

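No paired analysis was possible because each genotype has 1 library. Both medians stayed below 0 under every alternative but one: with whole estimated counts only (within 1e-06 reads), 2 mitochondrial genes were left, with a median of 0.17 and 0 called lower, and no cytosolic gene was left to give a value; within 0.001 reads, a tolerance added after seeing the data, 4 were left, with a median of -0.04 and 0 lower. Scaled by total reads, the cytosolic median was -0.62 and the mitochondrial -0.52, where that of all genes was -0.32, with 0 cytosolic genes called higher and 8 lower and 7 mitochondrial lower; of all calls 15.5% were then higher, against 39.8% after TMM scaling. On log2 of FPKM plus 1 the cytosolic median was -0.63, with 0 higher and 7 lower, and 4 mitochondrial genes were lower (median of all genes -0.24). On FPKM plus 0.1 the medians were -0.63 and -0.50, with 0 higher, 8 lower and 7 mitochondrial lower (median of all genes -0.29). After the GC and length correction the cytosolic median was -0.13, with 2 higher and 0 lower, and 1 mitochondrial gene was lower; on the principal transcript, added after seeing the data, it was -0.10, with 2 higher and 0 lower and 3 mitochondrial lower. By the 1.5-fold rule, 2 cytosolic genes were higher and 17 lower, and 1 mitochondrial gene was higher and 8 lower, where 22.1% of all genes were higher and 23.5% lower. Without paralogs, 0 cytosolic genes were higher. Without the 100 most abundant genes, the cytosolic share was 3.502% in the KO library and 5.31% in the control library, and the mitochondrial 0.156% and 0.204%. DESeq2 size factors, a prior count of 2, other filters and the exchanged Rpl24 row changed no call of a named member. Rpl22l1 had a ratio of 0.72 by total reads and was not called. The cause of these shifts was not tested. With 1 library per genotype, no depth can supply the missing spread between animals.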

Other observations

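Rows named as ribosomal protein pseudogenes, which the naming rule left out, numbered 226. They held 1520 reads in the KO library and 2589 in the control library, which is 0.345% in the KO and 0.351% in the control library of the reads of cytosolic ribosomal protein genes and these rows together. Most of those reads stood on few rows: Rpl31-ps12 had 415 reads in the KO library and 765 in the control library, Rps15a-ps6 had 435 in the KO and 554 in the control library, and Rps23-ps had 318 in the KO and 412 in the control library. Lars2, the mitochondrial leucyl-tRNA synthetase, stood apart from the other synthetases in level, with 1615 CPM in the KO library and 910 in the control library, while Iars2, the next of the list, had 56.7 CPM in the KO and 40.7 in the control library. The ratio of Lars2 was 0.83 and was not called.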
